A study of Mus musculus with 4 samples.

Results

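S100 genes encode small calcium-binding proteins, and 10 of them, S100a1, S100a3, S100a4, S100a6, S100a8, S100a9, S100a10, S100a11, S100a13 and S100a14, were followed in the skin of mouse embryos. Members were taken by gene symbol, using every probe set of the array that is annotated to a single symbol among them. This gave 12 probe sets for 9 genes, of 45037 non-control probe sets and 18193 named genes. S100a11 is annotated only on 1 probe set that also carries other symbols, so it has no value. RNA came from basal cells of the epidermis sorted by flow cytometry at embryonic day 16, and the mice were of mixed C57 and CD1 strain. The 2 genotypes were wild type (WT) and Ezh2cKO, a conditional knockout of Ezh2, with 2 arrays each, numbered replicate 1 and replicate 2. The driver of the deletion, its exons and the number of embryos behind each array are not given in the sources used here. Ezh2 is a histone methyltransferase of Polycomb repressive complex 2, a silencing complex, so the comparison asks how the genes respond when Ezh2 is deleted.

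Each S100 protein carries a pair of helix-loop-helix motifs called EF-hands, most of which bind calcium, and most members work as dimers that change shape with calcium and then grip a target protein. In mice most of the family lies in a cluster on chromosome 3 at the edge of the epidermal differentiation complex, a stretch of genes that builds the outer layers of skin. Keratinocytes are known to express several members, and others mark infiltrating white blood cells, fibroblasts or the hair cuticle.

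The windows before the annotated gene starts are shown for the partners S100a9 and S100a8, and for S100a4 and S100a6, which lie on either side of S100a5. Each sequence is the 250 bases before the start in RefSeq (build GRCm38.p6), 5′ to 3′ on the gene's own strand, with capitals marking CG dinucleotides and the motif TATAAA. CG is marked because Polycomb repressive complex 2 is known to occupy promoters rich in it.
S100a9, chr3:90695722-90695971, minus strand: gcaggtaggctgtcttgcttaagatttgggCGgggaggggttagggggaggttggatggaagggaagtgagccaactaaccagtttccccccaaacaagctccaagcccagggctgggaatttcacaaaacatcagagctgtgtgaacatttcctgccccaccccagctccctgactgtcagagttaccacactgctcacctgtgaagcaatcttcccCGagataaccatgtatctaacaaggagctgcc
S100a8, chr3:90668821-90669070, plus strand: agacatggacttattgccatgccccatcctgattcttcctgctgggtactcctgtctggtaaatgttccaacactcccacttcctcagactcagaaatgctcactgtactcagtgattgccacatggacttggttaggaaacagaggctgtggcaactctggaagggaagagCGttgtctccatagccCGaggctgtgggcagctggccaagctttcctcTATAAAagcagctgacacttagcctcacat
S100a4, chr3:90603520-90603769, plus strand: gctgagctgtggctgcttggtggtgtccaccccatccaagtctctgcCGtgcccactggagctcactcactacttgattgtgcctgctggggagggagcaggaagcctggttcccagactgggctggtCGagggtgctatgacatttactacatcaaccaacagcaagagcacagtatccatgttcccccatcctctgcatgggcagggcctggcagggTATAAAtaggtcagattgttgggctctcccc
S100a6, chr3:90612644-90612893, plus strand: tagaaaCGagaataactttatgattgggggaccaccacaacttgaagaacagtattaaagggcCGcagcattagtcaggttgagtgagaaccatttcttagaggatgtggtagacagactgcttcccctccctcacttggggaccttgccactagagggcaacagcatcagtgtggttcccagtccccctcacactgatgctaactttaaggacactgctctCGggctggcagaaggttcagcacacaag
The windows of S100a9, S100a8 and S100a4 hold 2 CG dinucleotides each and that of S100a6 holds 3, against a median of 6 over 32851 windows of the same length. The S100a13 window holds 13 CG and the S100a1 window 8. These genes start head to head on opposite strands, so their windows overlap. S100a11 has 11, and the 4 annotated starts of S100a3 have between 0 and 5. S100a10 and S100a14 were not matched in the table, so 8 of 10 members had a window. TATAAA, searched on both strands, occurs in 12.4% of all windows and in 3 of the 11 windows of the members. It begins 30 bases before the start of S100a8, 31 before that of S100a4 and 52 before 1 of the starts of S100a3. TGANTCA, the recognition motif of AP-1, occurs on either strand in 6.75% of all windows and among the members only in that of S100a11. These are descriptions of letters and do not show binding of any factor.

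The arrays report MAS5 signals, on a linear scale set by the authors. Median signals over all non-control probe sets were 91.6 and 136.9 for WT replicates 1 and 2, and 87.4 and 148.1 for Ezh2cKO replicates 1 and 2. Arrays with the same number deviated together, so the genotypes are also compared inside each number, 1 array against 1. The labels do not say that the replicates came from separate animals. A p-value therefore reflects nothing but the spread among these arrays, which may be technical. That spread is estimated from the probe set itself and from others of like signal, and the number of arrays limits the precision. Ezh2 had signals of 3336 and 3603 in WT and of 661 and 1308 in Ezh2cKO, a log2 difference of -1.88 (SE 0.34). The basal keratin Krt14 was high on all arrays (14501 to 16592), as were the suprabasal keratin Krt10 (16550 to 20275) and the fibroblast proteoglycan gene Dcn (13276 to 17210), so signal of other layers and of dermis was present. In such bulk samples, fewer cells of a type and less RNA per cell cannot be told apart.

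No S100 gene differed between the genotypes by more than the test could separate from the spread between arrays. Of the 9 genes with a probe set, 8 had one in the upper 60% by mean signal (at least 73.2) and were tested with limma, and S100a8 fell below that filter. The limma p adjusted over 27022 probe sets was 0.999979 for each of the 8, and 0 of them had an unadjusted p under 0.05. Ezh2, the targeted gene, had the same adjusted limma p of 0.999979 (unadjusted 0.00193), so the adjusted test did not pick out even that gene. Across the array 0 probe sets passed the adjusted threshold of 0.05, a share of 0%, and 110 had an unadjusted p under 0.05. The unadjusted level was reached by 0.606% of genes, fewer than a level of 0.05 would give by chance alone. Among the 8 genes, each read by its brightest kept probe set, log2 differences of Ezh2cKO minus WT ran from -0.73 to 0.35, with a median of 0.11. The median over all 12703 genes was -0.004. Differences are on the scale of log2(signal + 16), where the change of a dim gene looks smaller than it is. A missed threshold does not show equal levels, so intervals are given for each gene below.

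**Figure D1:**
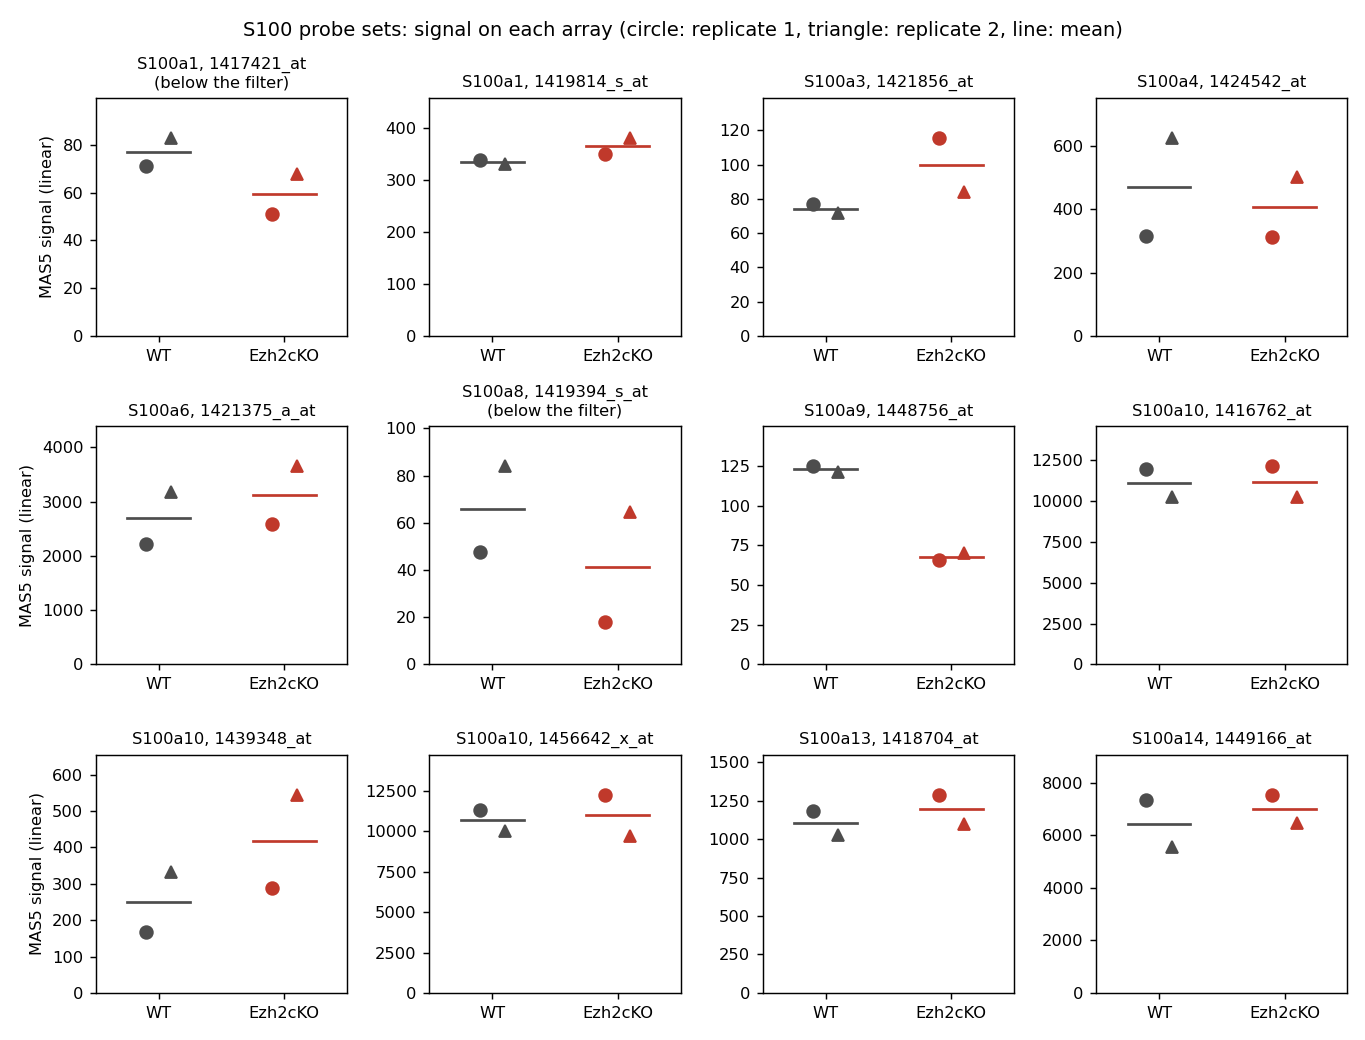
MAS5 signal (linear axis starting at 0) of the 12 S100 probe sets on the 4 arrays, with each probe set on its own axis, circles for replicate 1, triangles for replicate 2 and lines for the mean of each genotype. The S100a9 signals of both genotypes lie apart (125 and 121 against 65.8 and 70.2), while the probe sets of S100a4, S100a6, S100a13 and S100a14 overlap.

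S100a8 and S100a9 form the heterodimer calprotectin, which is abundant in neutrophils, is made by stressed keratinocytes and acts on the receptors Tlr4 and Ager. S100a9 had signals of 125 and 121 in WT and of 65.8 and 70.2 in Ezh2cKO. The genotypes did not overlap, Ezh2cKO being the lower, and the arrays of a genotype were close together. The log2 difference was -0.73 (SE 0.44, 95% confidence interval -1.84 to 0.39), and signal ratios of Ezh2cKO to WT were 0.527 within number 1 and 0.579 within number 2. That SE borrows from other probe sets of like signal and is not the spread of the S100a9 arrays alone. It was 0.20 without limma's trend and 0.25 with the replicate number as a block, and the adjusted threshold was still missed. S100a9 was the 1 gene of the 8 with both Ezh2cKO arrays below both WT arrays, which 8.39% of all genes showed. It kept this order under both other scalings of the arrays. Its Ezh2cKO signals lie below the filter's level of 73.2, so it was kept through its WT signals and had to be lower in Ezh2cKO. Detection calls were not used, so whether the Ezh2cKO signals are above background is not known.

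S100a8 had signals of 47.6 and 84.1 in WT and of 17.8 and 64.8 in Ezh2cKO. It was lower in Ezh2cKO within each number, but the genotypes overlapped, and no signal ratio is given for a probe set below the filter. Fitted without the filter, its log2 difference was -0.61 (SE 0.62, interval -2.12 to 0.90). The probe set is of the type marked s_at, which by design can detect several transcripts. Markers of neutrophils and other myeloid cells were followed beside the pair. The 17 listed markers on the array summed to 1348 and 1540 in WT and to 1285 and 1691 in Ezh2cKO. Of these, 9 lay below the filter, none was at 0, and the lowest signal on any array was 5.23, of the chemokine receptor gene Cxcr2. Within both numbers 5 of the 17 were higher in Ezh2cKO and 5 lower, where 25.2% and 25.6% of all measured genes were. These shares cover only genes above the filter, and of the 8 markers above it 3 were higher and 3 lower. Of the 17, both Ezh2cKO arrays lay above both WT arrays for 1, Cxcr2, and below for 2, the neutrophil elastase gene Elane and the adaptor gene Tyrobp. Of the 8 above the filter the counts were 0 and 1. Of all measured genes 8.52% and 8.39% showed these orders. Elane had signals of 46.3 and 70.2 in WT and 18.5 and 30.3 in Ezh2cKO, and the neutrophil granule gene Ngp had 57.2 and 83.8 against 83.1 and 88.1. These genes were singled out after their values were seen. The part of myeloid cells in the S100a8 and S100a9 signals was not tested. Of the receptors of the pair, Ager had 96.3 and 166 in WT against 103 and 117 in Ezh2cKO, and was also named after its values were seen.

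S100a10 is the member that has lost calcium binding and stays in its active shape, and it forms a complex with annexin A2 at the inner face of membranes. By its brightest probe set, 1416762_at, it had signals of 11951 and 10219 in WT and of 12122 and 10236 in Ezh2cKO. The genotypes overlapped, and within a number they were nearly equal. The log2 difference was 0.01 (SE 0.15), and its interval of -0.38 to 0.40 is among the narrowest of the members. The second bright probe set, 1456642_x_at, had 11347 and 10042 against 12285 and 9690, a log2 difference of 0.03. A dimmer probe set, 1439348_at, gave another picture, with 168 and 334 in WT and 289 and 546 in Ezh2cKO. There the signal of the Ezh2cKO array exceeded that of WT 1.72-fold in number 1 and 1.64-fold in number 2 (log2 difference 0.71, SE 0.46, interval -0.44 to 1.85). The genotypes overlapped because both arrays numbered 2 were higher. The files do not say which transcript it detects, so the value is that of the probe set, not of the gene. With the 3 probe sets averaged, the difference of S100a10 was 0.25, and both Ezh2cKO arrays then lay above both WT arrays.

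Anxa2, the partner of S100a10, had signals of 15086 and 13500 in WT and 15056 and 13567 in Ezh2cKO, and was named after its values were seen. Its log2 difference was below 0.005 in size, with an interval of -0.32 to 0.33. Of 29 partners, targets and receptors of S100 proteins listed, 21 were measured. None passed the adjusted threshold or an unadjusted p under 0.05. Both Ezh2cKO arrays were above both WT arrays for 0 of them and below for 2, where 8.52% and 8.39% of all genes were, and the median log2 difference was -0.03. Anxa5, a further annexin that binds membrane lipids, had 8588 and 8105 in WT and 6502 and 6905 in Ezh2cKO (log2 difference -0.32, SE 0.13, interval -0.64 to 0.01). Cd36, a scavenger receptor for fatty acids, had 1542 and 1465 in WT and 430 and 1566 in Ezh2cKO. Tgm2, a transglutaminase, had 646 and 769 in WT and 225 and 783 in Ezh2cKO. In both genes the low value was that of Ezh2cKO replicate 1 alone. On that array 8 endothelial markers summed to 4477, against 8548 to 10866 on the others, and their part in these values was not tested. Myh14, a nonmuscle myosin heavy chain, had 133 and 274 in WT and 210 and 321 in Ezh2cKO, overlapping between the genotypes.

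S100a4 and S100a6 are expressed in many mesenchymal cells. S100a4 binds nonmuscle myosin and is widely used as a fibroblast marker, and S100a6, or calcyclin, binds the protein encoded by Cacybp. S100a4 had signals of 316 and 627 in WT and of 313 and 501 in Ezh2cKO. Its arrays split by replicate number rather than by genotype. The log2 difference was -0.16 (SE 0.41, interval -1.20 to 0.87), with -0.01 within number 1 and -0.31 within number 2. S100a6 had 2227 and 3176 in WT and 2586 and 3653 in Ezh2cKO. The Ezh2cKO array was higher within each number by a similar step, 1.16-fold and 1.15-fold, and the genotypes overlapped. Its log2 difference was 0.21 (SE 0.26, interval -0.45 to 0.86). Without WT replicate 1 it was -0.05, so the sign rests on comparing arrays of the same number. For S100a4 the difference ran from -0.64 to 0.31 with 1 array left out.

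**Figure D2:**
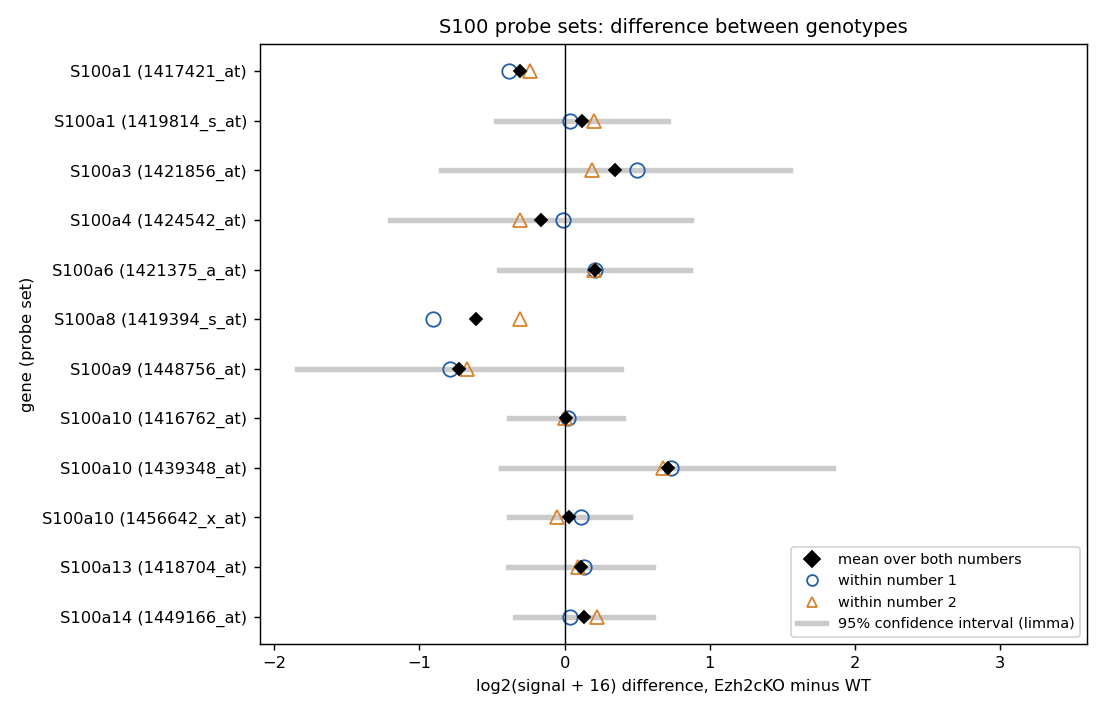
Differences of log2(signal + 16), Ezh2cKO minus WT, for the 12 S100 probe sets. Diamonds give the mean over both numbers, open circles and triangles the values within numbers 1 and 2, and grey bars limma's 95% confidence interval for the 10 probe sets above the filter. Every bar crosses 0, and S100a9 and S100a10 probe set 1439348_at lie farthest to the left and right among them, at -0.73 and 0.71.

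S100a3 and S100a14 are members with epithelial expression, S100a3 being a protein of the hair cuticle. S100a3 had signals of 76.9 and 71.9 in WT and of 116 and 84.3 in Ezh2cKO. Both Ezh2cKO arrays lay above both WT arrays, by a step that differed between the numbers, with signal ratios of 1.51 and 1.17. Its log2 difference was 0.35 (SE 0.48, interval -0.85 to 1.55), and its signals lie close to the filter's level. Of 8 hair shaft and cuticle markers 7 were on the array and 4 measured. The 7 summed to 828 and 931 in WT and to 901 and 921 in Ezh2cKO. Within both numbers 2 of the 7 were higher in Ezh2cKO and 3 lower, where 25.2% and 25.6% of all measured genes were. These shares cover only genes above the filter, and of the 4 markers above it 2 were higher and 2 lower. The cuticle keratin Krt32 had 341 and 425 against 328 and 389, and Hoxc13 had 184 and 144 against 170 and 98.1, both lower within each number. Padi3, a peptidylarginine deiminase, had 104 and 141 against 148 and 193, with both Ezh2cKO arrays higher, which 8.52% of all genes showed. Padi3 is not among the 3 brightest of its list and was named after its values were seen. Msx2, a homeobox gene of the hair matrix, had 172 and 131 against 237 and 148. S100a14 had 7338 and 5540 in WT and 7550 and 6468 in Ezh2cKO. The arrays overlapped, with the number 2 WT array lowest. The log2 difference was 0.13 (SE 0.19, interval -0.34 to 0.61).

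S100a1, known from heart muscle where it acts on calcium release channels, was read by a pair of probe sets that pointed opposite ways. The brighter, 1419814_s_at, had 339.9 and 330 in WT and 349.8 and 382 in Ezh2cKO, with both Ezh2cKO arrays higher (log2 difference 0.12, SE 0.24, interval -0.47 to 0.71). The dimmer, 1417421_at, below the filter, had 71.1 and 83.0 in WT and 51.1 and 67.7 in Ezh2cKO, with both Ezh2cKO arrays lower. Its log2 difference was -0.31. No direction can therefore be given for S100a1. S100a13, which takes part in the release of Fgf1 from cells, had 1181 and 1030 in WT and 1291 and 1097 in Ezh2cKO. It was higher within each number, and the genotypes overlapped. Its log2 difference was 0.11 (SE 0.20, interval -0.39 to 0.61). Fgf1 itself had 103 and 145 in WT and 92.2 and 178 in Ezh2cKO, and was named after its values were seen.

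Taking the 8 tested members as a list, both Ezh2cKO arrays were above both WT arrays for 2 (S100a1 and S100a3) and below for 1 (S100a9). S100a1 enters these counts by its brighter probe set alone, and its dimmer one points the other way. S100a9 was kept through its WT signals and had to be lower in Ezh2cKO. Of all genes 8.52% and 8.39% showed these orders. The 2 higher members depended on the scaling, since neither kept its order after quantile normalization or scaling to a common median, while S100a6 gained it under the latter. Within both numbers 6 members were higher in Ezh2cKO and 2 lower, where 25.2% and 25.6% of all genes were. This count was 5 and 1 after quantile normalization and 4 and 1 after median scaling, with 24.1% and 16.4% of all genes higher. For 5 of the 6 the difference between genotypes was 0.21 or less on the log2 scale. Inside numbers 1 and 2 the list had medians of 0.04 and 0.14, beside 0.02 and -0.01 for all genes. No test of the list was made.

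**Figure D3:**
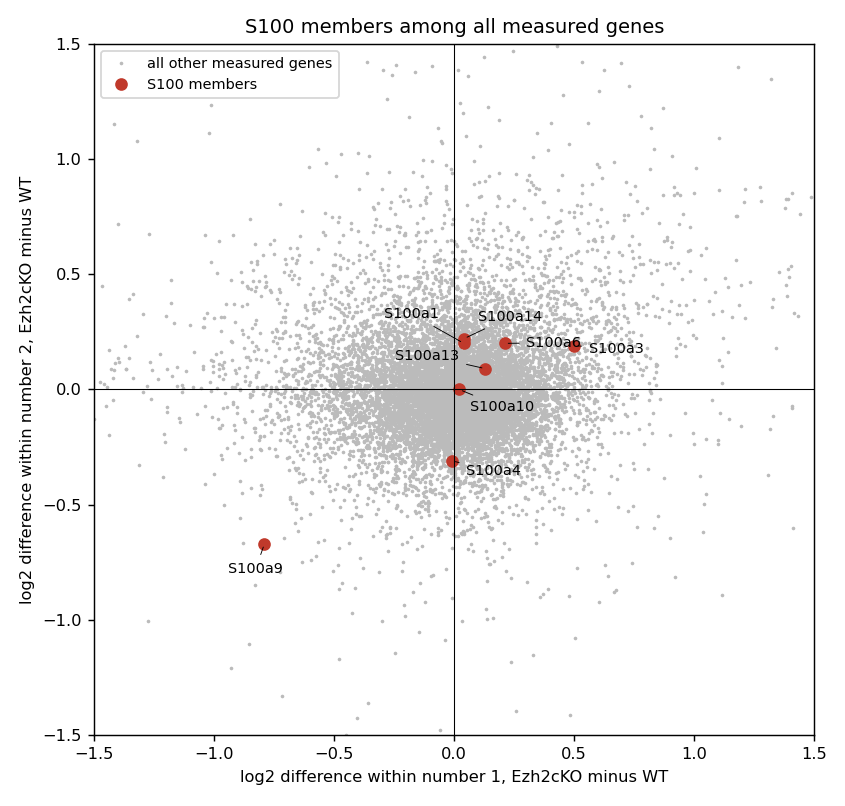
Log2 difference between the genotypes within number 1 (horizontal) and within number 2 (vertical), for the 8 tested S100 genes (red, labelled) among all measured genes (grey), both axes cut at 1.5 with 94 genes outside. S100a9 lies in the lower left at -0.79 and -0.67, and the other members lie between -0.31 and 0.50.

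The replicate numbers moved several members more than the genotype did. S100a4 was lower on the arrays numbered 1, with a signal 0.504 times that of number 2 in WT and 0.625 times in Ezh2cKO. S100a6 was lower there too, at 0.701 and 0.708 times. S100a10, S100a13 and S100a14 lay the other way. Their log2 differences of number 1 minus number 2 were 0.23 and 0.24, 0.19 and 0.23, and 0.40 and 0.22 in WT and Ezh2cKO. S100a9 differed little, by 0.04 and -0.08. Of the 8 genes, 2 were lower and 4 higher on number 1 in both genotypes, and 35.5% and 42.5% of all genes were. Lists of cell type markers moved as well. The 12 measured fibroblast markers had medians of -0.34 in WT and -0.55 in Ezh2cKO, and summed to 81490 and 77595 on the arrays numbered 1 against 92036 and 96638 on those numbered 2. Most of these markers were lower on number 1, but the brightest ones, Dcn and Postn, were not. Dcn differed by 0.22 in WT and 0.20 in Ezh2cKO, and Postn by 0.05 and 0.22. The 12 basal epidermal markers had medians of 0.18 and 0.16. The medians over all genes were 0.03 and 0.05. The part of the dermal share in the S100a4 and S100a6 signals was not tested.

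**Figure D4:**
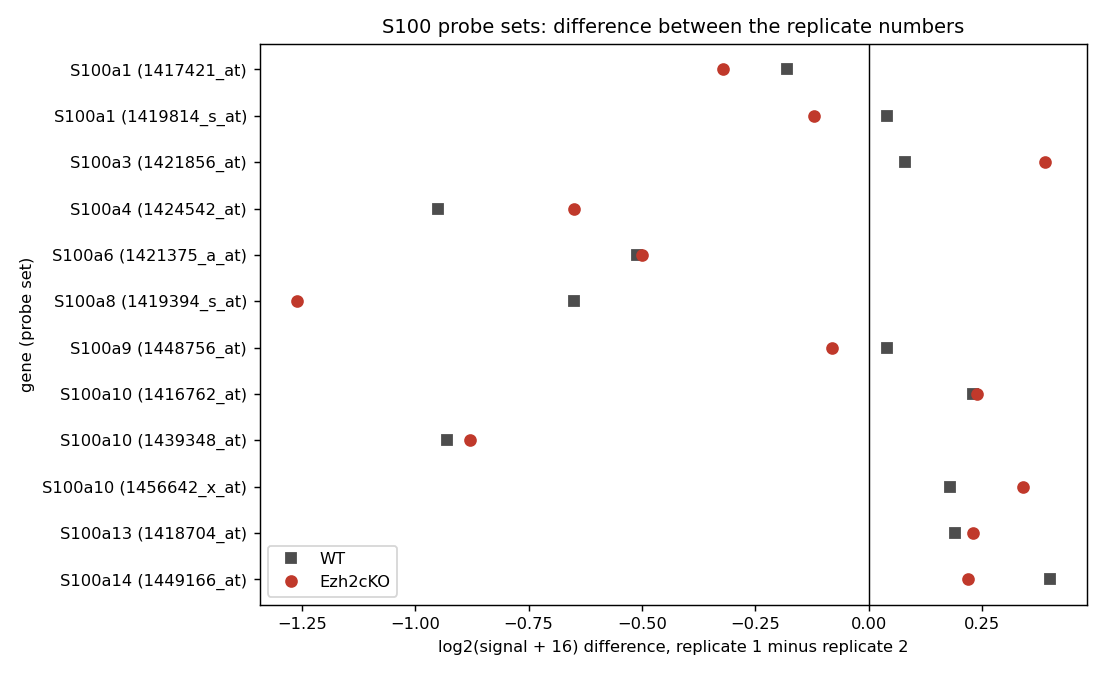
Differences of log2(signal + 16), replicate 1 minus replicate 2, for the 12 S100 probe sets in WT (squares) and Ezh2cKO (circles). S100a4, S100a6, S100a8 and S100a10 probe set 1439348_at lie at or below -0.50 in both genotypes, and S100a10 by its bright probe sets, S100a13 and S100a14 lie above 0.

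Other S100 genes on the array were read in the same way. S100a16, a neighbour of S100a14, had 9014 and 7154 in WT and 9968 and 7587 in Ezh2cKO (log2 difference 0.11, SE 0.20). A second probe set gave a difference under 0.005. S100a5, which lies between S100a4 and S100a6, had 67.5 and 92.4 in WT and 60.7 and 112 in Ezh2cKO, overlapping widely. S100b, a glial member on another chromosome, had 86.2 and 114 in WT and 97.2 and 129 in Ezh2cKO by its brighter probe set. A second S100b probe set, 1419383_at, had 75.7 and 65.4 against 49.7 and 122, the Ezh2cKO array being lower in number 1 and higher in number 2. S100pbp, which encodes an S100P-binding protein, had 1039 and 1096 in WT and 853 and 1085 in Ezh2cKO. S100g had signals of at most 3.41 and S100a7l2 of at most 3.06, far below the filter. None of the 4 listed genes that were measured had its genotypes apart, where 8.52% of all genes lay above and 8.39% below.

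The cluster that holds the members encloses the epidermal differentiation complex, so both sets of genes can be read along the same stretch. In the RefSeq gene order 12 S100 genes, S100a1 to S100a9, come first without another protein-coding gene between them, and S100a11 and S100a10 close the stretch. Between S100a9 and S100a11 lie 55 protein-coding genes that are not S100 genes, 36 of them on the array by a single symbol and 22 measured. Both Ezh2cKO arrays lay above both WT arrays for 16 of the 22 and below for 0, with a median log2 difference of 1.33. For the 10 measured S100 genes of the stretch the counts were 2 and 1, and the median was 0.11. The 1 was S100a9, kept through its WT signals. Both counts stand beside the 8.52% and 8.39% of all genes, and the difference between the sets was not tested. Within numbers 1 and 2 the medians of the enclosed genes were 2.13 and 0.72, and those of the S100 genes 0.04 and 0.14. The enclosed genes summed to 4633 and 6170 in WT and to 18475 and 9613 in Ezh2cKO, so Ezh2cKO replicate 1 was the highest array. For 6 of the 22 enclosed genes, Lce1c and Flg among them, the WT mean lay below the filter's level, so they were kept through their Ezh2cKO signals and had to differ. All 6 are among the 16, and of the other 16 measured genes both Ezh2cKO arrays were above for 10 and below for 0. The median log2 difference of these other 16 genes was 1.14. The enclosed genes include late cornified envelope genes, loricrin and filaggrin. Lce1c, an envelope gene, had 69.2 and 41.4 in WT and 1007 and 269 in Ezh2cKO. Lor, encoding loricrin, had 1753 and 2498 in WT and 5629 and 3423 in Ezh2cKO. Flg, which encodes filaggrin and begins with an S100 domain fused to a long repeat, had 23.8 and 29.4 in WT and 169 and 184 in Ezh2cKO (log2 difference 2.18, SE 0.51). Of the other fused-type genes, Hrnr had 137 and 684 against 642 and 863, and Tchh had 108 and 150 against 104 and 151. None of these genes passed limma's adjusted threshold. The 12 suprabasal markers had both Ezh2cKO arrays above both WT arrays for 6 and below for 0, where 8.52% and 8.39% of all genes were. Lor, Flg and Ivl are also among the enclosed genes, so the lists share members. Flg was kept through its Ezh2cKO signals. Of the other 11 markers 5 were above and 0 below, with a median log2 difference of 0.18. The part of suprabasal cells in the stretch was not tested.

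**Figure D5:**
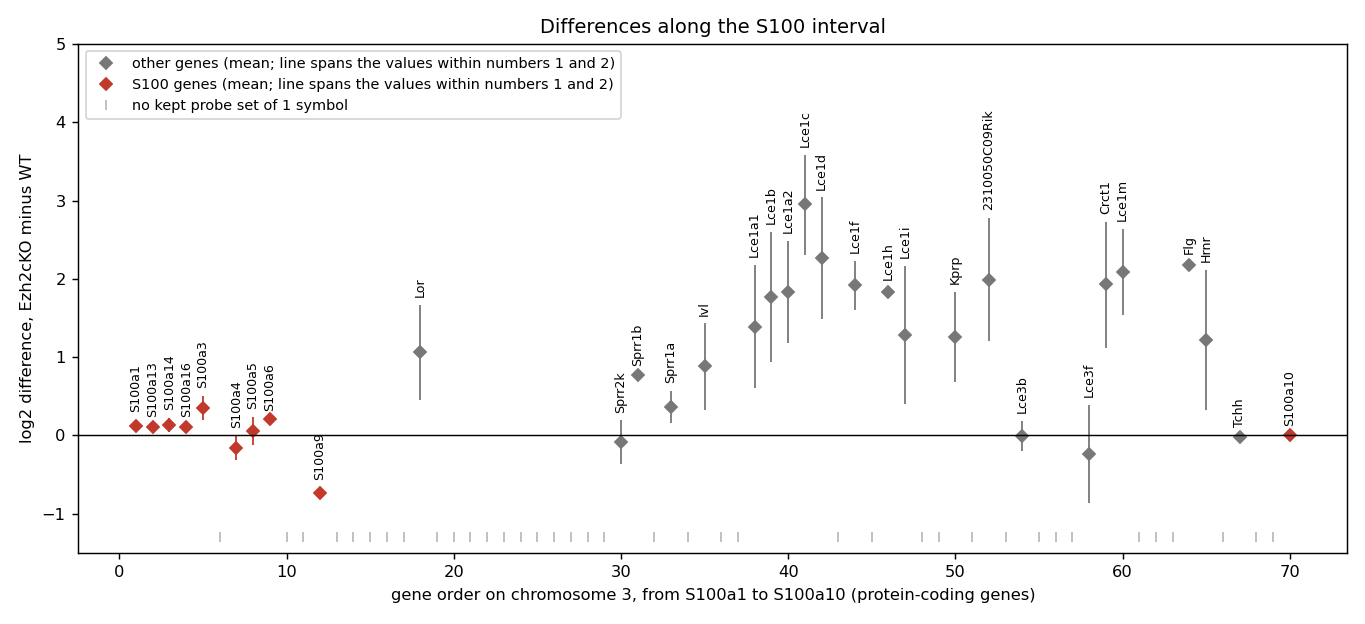
Log2 difference between the genotypes (vertical) by gene order on chromosome 3 from S100a1 to S100a10 (horizontal, order and not distance), with diamonds for the mean, lines spanning the values within numbers 1 and 2, S100 genes in red, other genes in grey, and ticks at the bottom for genes with no kept probe set of 1 symbol. The red points at both ends lie between -0.73 and 0.35. The grey points between them reach 2.95, the value of Lce1c, a gene kept through its Ezh2cKO signals.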

How the data were processed

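The authors deposited linear signal intensities made with MAS5 (named without a version), per the submitters' processing notes. MAS5 merges the probes of a set and scales each array. With 2% trimmed from both ends, all 4 arrays averaged 500.0, and this scaling was left in place. The genome build behind the chip is not given in the sources used here. Leaving aside 64 controls, the table holds 45037 probe sets, of which 34945 carry 1 gene symbol, 932 several and 9160 none in the platform annotation. Genes were named only from sets with 1 symbol, and 34741 matched the RefSeq table (GRCm38.p6), used for names and gene order.

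Values were transformed as log2(signal + 16), the upper 60% of probe sets by mean signal kept (27022, for 12703 genes), and the genotypes compared in R 4.3.3 by limma 3.58.1 (lmFit, then trended eBayes, Benjamini-Hochberg adjustment, threshold 0.05). A gene is read by its brightest kept probe set. Signals are given per array (n = 2 per genotype). Detection calls were not used. Alternatives were other pseudocounts, filters and scalings, no trend, the replicate block, averaged probe sets and leaving out each array. Array numbers 1 and 2 are shared by both genotypes in the labels.

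Named are Ezh2, the members with every probe set, the other S100 genes, up to 4 genes per partner, fused-type and interval list by moderated t, and up to 3 markers per cell type list by signal. Values are printed for part of these. Members and lists were chosen with earlier results of these data known.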

Additional observations from a re-analysis of the deposited data

How the results depend on the processing

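No member passed the adjusted threshold under any of 13 alternatives (lowest adjusted p 0.915 for S100a9, with the replicate number as a block). The labels give both genotypes replicates 1 and 2, and arrays of the same number deviated together (correlation 0.766 of deviations from the group means over kept probe sets), but nothing says that they share an animal or day. With this replicate block 6 probe sets passed (5 higher, 1 lower), against 0 without it, and no member's brightest probe set was among them. An unadjusted limma p under 0.05 was reached by 1353 probe sets with the block and by 110 without it. The SEs of the members then ran from 0.07 (S100a10) to 0.26 (S100a3), against 0.15 to 0.48 for the same genes without it. The block leaves 1 residual degree of freedom. With 1 array left out, between 0 and 52 probe sets passed, the lone array of a genotype being assumed to vary like the other group. Leaving out WT replicate 2 gave 52, leaving out Ezh2cKO replicate 2 gave 27 and leaving out WT replicate 1 gave 2. The count of members with both Ezh2cKO arrays above both WT arrays was 2, and 1 in the upper 40% of probe sets, 0 after quantile normalization, 1 after scaling to a common median and 3 with a gene's kept probe sets averaged, where S100a10 joined. It ran from 3 to 5 with 1 array left out, where fewer arrays must agree. The count below was 1, and 0 in the upper 40%, where S100a3 and S100a9 are not kept, and 1 to 2 with 1 array left out. The median of the members ran from 0.06 to 0.13 with 1 array left out.

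S100a9 kept its direction under every alternative that kept it, from -0.85 at a pseudocount of 1 to -0.50 at 64. With 1 array left out it ran from -0.77 to -0.69. The sign of S100a10 turned to -9.5e-05 under quantile normalization and to -0.01 under median scaling. With 1 array left out the ranges crossed 0 for S100a4 (-0.64 to 0.31), S100a6 (-0.05 to 0.46), S100a10 (-0.11 to 0.13), S100a13 (-0.01 to 0.22) and S100a14 (-0.07 to 0.33), but not for S100a1 (0.06 to 0.18) or S100a3 (0.15 to 0.54). The causes were not tested. Signal over background is not known for the dim probe sets of S100a3, S100a8 and S100a9.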
